A study of Mus musculus with 12 samples.

Results

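Blood vessel and blood-brain barrier genes were examined in hypothalamus RNA-seq libraries of mice with diet-induced obesity. The 40 genes were picked by name as genes of endothelial cells, pericytes and vascular smooth muscle, and each matched exactly 1 of the 78334 gene IDs of the count table. They comprise 16 endothelial receptors and adhesion or surface molecules, 4 endothelial transcription factors, 3 tight junction genes, 8 barrier transporters, 6 pericyte genes and 3 smooth muscle genes.

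Brain capillaries are lined by endothelial cells that are sealed to one another by tight junctions, which limits what passes between blood and brain. These cells carry nutrients inward through dedicated transporters and pump many drugs and metabolites back with efflux pumps. Pericytes sit on the outside of capillaries and help to maintain the barrier, while contractile smooth muscle cells wrap arterioles. The hypothalamus contains ordinary barrier capillaries and, at the median eminence, leaky ones through which hormones pass.

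All mice were C57BL/6 males, 8 weeks old at the start. Ob + EAE (2 libraries), Ob + CUR (1 library) and Ob + RSV (3 libraries) mice were fed an HFD with 60% of kcal from fat and gavaged daily for 28 days from 16 weeks of age with aged garlic extract at 200 mg/kg, curcumin at 50 mg/kg or resveratrol at 2.25 mg/kg. Ob mice (3 libraries) received the same HFD with vehicle, and C mice (3 libraries) standard chow with vehicle. The labels give 8 weeks of HFD in all and also a gavage that starts at week 8 of it, so the length of HFD feeding by the end of the gavage is uncertain.

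Total counts were 21120304 and 21536990 in Ob + EAE, 23273359 in Ob + CUR, and between 15655156 and 26284661 in the other 9 libraries. More genes were detected in Ob + EAE replicate 1 (37165), Ob + EAE replicate 2 (38081) and the curcumin library (37598) than in any other library. The others ranged from 24450 for Ob + RSV replicate 2 to 36541 for C replicate 1. Ob replicates 1, 2 and 3 had 26123, 32664 and 32511 detected genes. The part of this gap in the vessel gene differences was not tested. Endothelial (Cldn5, Pecam1, Cdh5, Tek, Tie1) and pericyte (Rgs5, Pdgfrb, Abcc9, Vtn) defining genes had reads in every library. Of the smooth muscle genes Tagln had no read in Ob + RSV replicate 2, Ob replicate 3 and C replicate 2, where 3 reads would be 0.138, 0.192 and 0.171 CPM (read counts scaled to the library's total), and Anpep had none in Ob + RSV replicate 2. The Ob + CUR library stood apart in several of its hypothalamic genes. Its Oxt, the gene of the hormone oxytocin, was at 4.04 CPM against 202 to 739 CPM in the other 11 libraries, and its Hcrt, the gene of the wake-promoting orexin peptides, at 2.06 against 21 to 108 CPM. Avp, Trh and Pmch were also below all others there. The regional transcription factor Nkx2-1 was above them at 87.1 against 16.8 to 48.8 CPM. So was Sim1, at 24.3 against 7.54 to 17.9 CPM, while Pomc, Agrp and Npy lay within the range of the other libraries. The Ob + EAE libraries differed from each other by a mean chi-square per gene of 7.54, above the value near 1 that sampling noise gives, yet less than the 25.6 to 87.9 of the 9 pairs of libraries within Ob + RSV, Ob and C. Each Ob + EAE library differed from the Ob + CUR library by 13.6 to 14.8, also less than any of those 9 pairs. The Ob + EAE libraries were counted as 2 libraries. No source used here states whether they came from separate mice, so the spread between them may be technical. The fit that tests them has 7 residual degrees of freedom, of which 6 come from C, Ob and Ob + RSV.

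**Figure D1:**
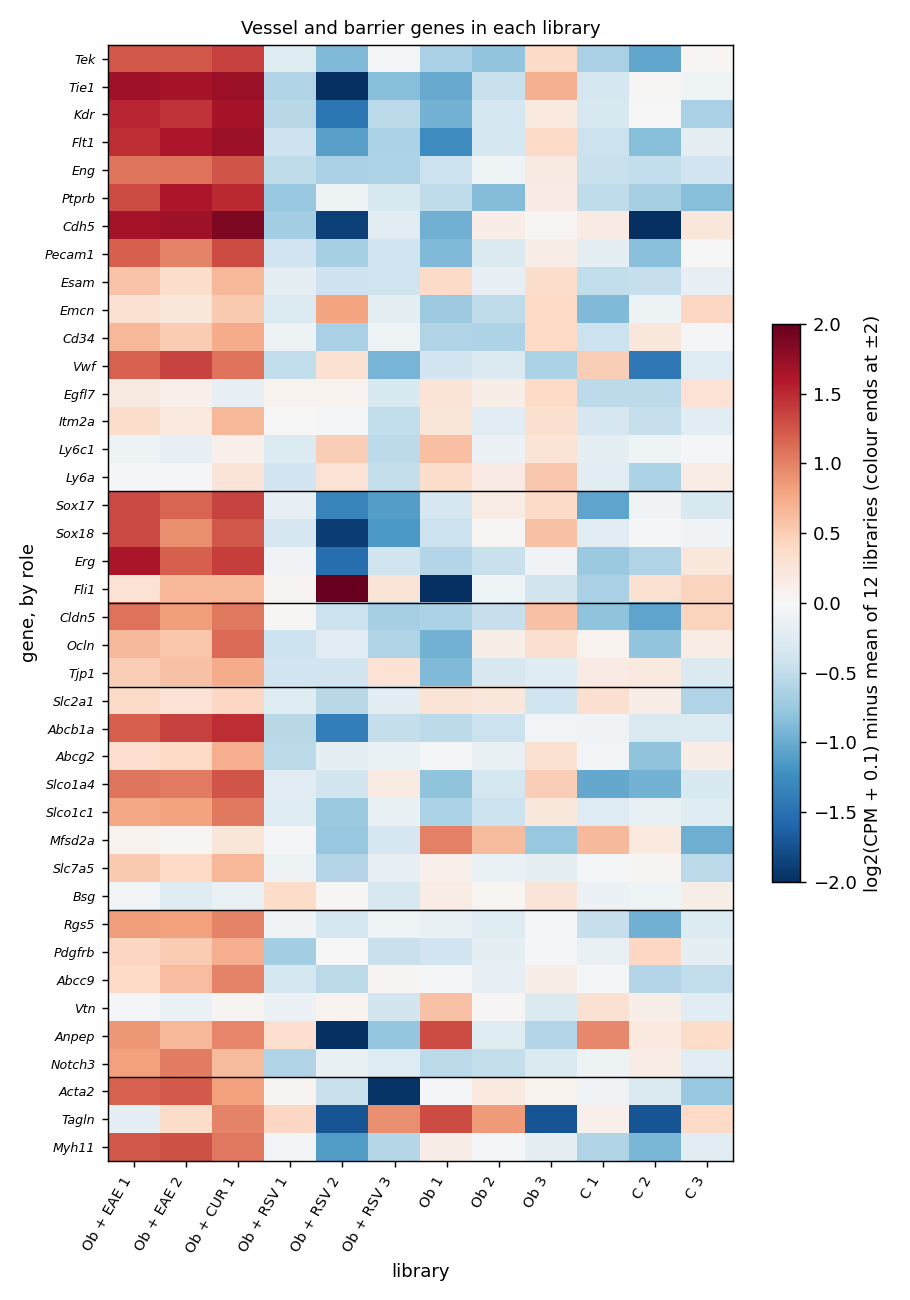
Level of the 40 genes (rows, by role, separated by lines) in each of the 12 libraries (columns), as log2(CPM + 0.1) minus the gene's mean over the libraries. Most endothelial rows are high in the 2 Ob + EAE libraries and the Ob + CUR library, while Ly6c1, Ly6a, Egfl7, Bsg, Mfsd2a and Vtn are near their means there.

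The comparison of Ob + EAE with Ob asked how vessel genes stood in mice with obesity given aged garlic extract. Of the 40 genes, 12 were called (Benjamini-Hochberg adjusted p under 0.05 over all genes tested and a log2FC of at least 1 in size), all higher in Ob + EAE. Of all 36164 genes tested, 0.763% were called higher and 1.08% lower. The called genes were 9 endothelial receptors and adhesion molecules, the transporters Abcb1a and Slco1a4, and the pericyte and smooth muscle receptor Notch3. Unadjusted p-values fell under 0.05 for 23 of the 40 genes in the higher and 0 in the lower direction, against 6.87% and 6.48% of all genes. The median log2FC was 0.96 over the 40 genes and 0.05 over all genes tested. The Ob + EAE libraries lay above all Ob libraries for 29 of the 40 genes and below them for 2. Over all 36164 genes tested this held for 9020 and 4969. In bulk tissue, more vessel cells and more RNA per vessel cell cannot be told apart. Whether a difference in dissection or library preparation played a part was not tested.

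Flt1 and Kdr encode receptors 1 and 2 for VEGF, a signal that makes vessels grow and become permeable. Flt1 counts were 86.2 and 95 CPM in Ob + EAE, 101 CPM in Ob + CUR, 23, 14.5 and 19.8 CPM in Ob + RSV, 12.8, 24 and 40.3 CPM in Ob, and 22.9, 17 and 27.3 CPM in C. Both Ob + EAE libraries were more than 2-fold above Ob replicate 3, the highest of the Ob libraries (log2FC 1.77 ± 0.30 SE, adjusted p = 0.00391). Kdr counts were 22.3 and 21.2 CPM in Ob + EAE, 24.7 CPM in Ob + CUR, 5.25, 2.76 and 5.29 CPM in Ob + RSV, 3.97, 6 and 8.81 CPM in Ob, and 6.14, 7.68 and 4.89 CPM in C. Again no Ob library reached the Ob + EAE values (log2FC 1.74 ± 0.35 SE, adjusted p = 0.0103).

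The angiopoietin receptors keep resting vessels stable. Tek, which encodes the receptor Tie2, had 17.7 and 17.7 CPM in Ob + EAE, 19.2 CPM in Ob + CUR, 6.24, 3.95 and 7.17 CPM in Ob + RSV, 4.69, 4.24 and 9.71 CPM in Ob, and 4.69, 3.53 and 7.62 CPM in C. Ob replicate 3 was the highest Ob library and stayed below both Ob + EAE libraries (log2FC 1.46 ± 0.38 SE, adjusted p = 0.0349). Tie1, its partner receptor, had 18.4 and 18 CPM in Ob + EAE, 18.6 CPM in Ob + CUR, 3.65, 0.919 and 3.06 CPM in Ob + RSV, 2.73, 4.07 and 9.2 CPM in Ob, and 4.39, 5.69 and 5.27 CPM in C. Ob + RSV replicate 2 had the lowest Tie1 of all libraries, and the Ob + EAE and Ob libraries did not overlap (log2FC 1.73 ± 0.44 SE, adjusted p = 0.0337). Ptprb encodes VE-PTP, a phosphatase that restrains Tie2, and had 48.2 and 60 CPM in Ob + EAE, 54.9 CPM in Ob + CUR, 11.5, 18.1 and 15.8 CPM in Ob + RSV, 13.7, 10.6 and 21.8 CPM in Ob, and 13.6, 12.2 and 10.7 CPM in C. It had the smallest p-value of the 40 genes in this comparison (log2FC 1.76 ± 0.26 SE, adjusted p = 0.00174).

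Several adhesion genes of the endothelium were also higher. Cdh5, encoding VE-cadherin of endothelial adherens junctions, had 15.4 and 15.8 CPM in Ob + EAE, 17.7 CPM in Ob + CUR, 2.97, 1.24 and 4.12 CPM in Ob + RSV, 2.42, 5.28 and 4.92 CPM in Ob, and 5.37, 1.08 and 5.65 CPM in C. Its counts are low, and Ob + RSV replicate 2 and C replicate 2 stood far below the rest (log2FC 1.83 ± 0.50 SE, adjusted p = 0.0457). Pecam1, an adhesion molecule at endothelial contacts, had 23.1 and 20.1 CPM in Ob + EAE, 25 CPM in Ob + CUR, 7.72, 6.29 and 7.64 CPM in Ob + RSV, 5.41, 8.25 and 11.1 CPM in Ob, and 8.9, 5.63 and 10.1 CPM in C. The Ob + EAE libraries were above every Ob library (log2FC 1.33 ± 0.32 SE, adjusted p = 0.024). Eng, a TGF-beta co-receptor (log2FC 1.11 ± 0.25 SE, adjusted p = 0.018), and Vwf, which encodes the clotting protein von Willebrand factor (log2FC 1.63 ± 0.40 SE, adjusted p = 0.0261), were called as well. The other 7 genes of this role were not called. Among them the cell surface genes Ly6c1 and Ly6a had log2FC of -0.49 and -0.46, and Egfl7, encoding a secreted vessel protein, -0.20.

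**Figure D2:**
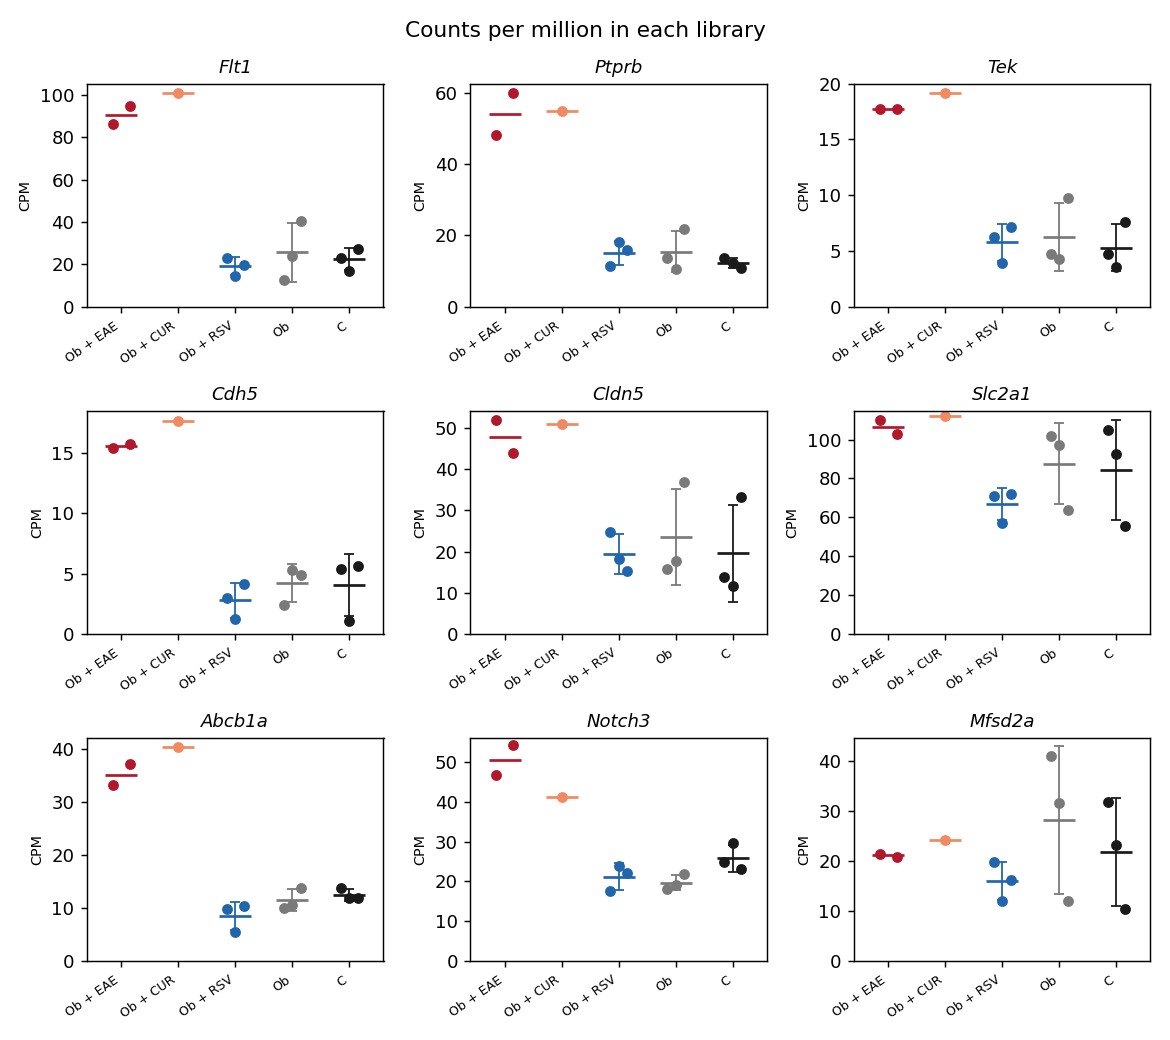
CPM of 9 genes in each library (points), with the group mean (horizontal line) and, for groups of 3, the SD (bars). For Flt1, Ptprb, Tek, Cdh5, Cldn5, Abcb1a and Notch3 the Ob + EAE and Ob + CUR points lie above all others, whereas for Mfsd2a they lie within the Ob range.

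The 4 transcription factor genes, which specify endothelial identity, were not called. Their log2FC were 1.11 for Sox17, 0.99 for Sox18, 1.77 for Erg and 1.23 for Fli1. In each the Ob + EAE libraries lay above all Ob libraries, as they did for 9020 of all 36164 genes tested. Erg had the smallest adjusted p of the 4 at 0.113.

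Of the tight junction genes, Cldn5 encodes claudin-5, the main sealing protein of brain endothelium. Its counts were 52 and 43.9 CPM in Ob + EAE, 51 CPM in Ob + CUR, 24.8, 18.2 and 15.3 CPM in Ob + RSV, 15.8, 17.7 and 36.9 CPM in Ob, and 13.9, 11.7 and 33.2 CPM in C. The groups did not overlap, but Ob replicate 3 was more than 2-fold above the other Ob libraries and the gene was not called (log2FC 0.99 ± 0.34 SE, adjusted p = 0.13). Tjp1, which encodes the scaffold protein ZO-1, passed the adjusted p but not the minimum log2FC (log2FC 0.94 ± 0.24 SE, adjusted p = 0.0304), and Ocln, encoding occludin, passed neither (log2FC 0.64 ± 0.43 SE, adjusted p = 0.593).

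Barrier transporters were divided. Abcb1a encodes the efflux pump P-glycoprotein and had 33.1 and 37.2 CPM in Ob + EAE, 40.3 CPM in Ob + CUR, 9.74, 5.47 and 10.3 CPM in Ob + RSV, 9.94, 10.6 and 13.8 CPM in Ob, and 13.7, 11.8 and 11.9 CPM in C. It was higher in both Ob + EAE libraries than in any Ob library (log2FC 1.56 ± 0.28 SE, adjusted p = 0.00563). Slco1a4, an organic anion transporter, was called too (log2FC 1.13 ± 0.28 SE, adjusted p = 0.0269). Slco1c1 carries thyroid hormone into the brain and had 41.2 and 42 CPM in Ob + EAE, 49.8 CPM in Ob + CUR, 20.3, 14.3 and 21.6 CPM in Ob + RSV, 15.4, 17.7 and 27.9 CPM in Ob, and 20.1, 21.7 and 20.2 CPM in C. It passed the adjusted p and missed the minimum log2FC (log2FC 0.98 ± 0.25 SE, adjusted p = 0.0348). Slc2a1, encoding the glucose transporter GLUT1, had 110 and 103 CPM in Ob + EAE, 112 CPM in Ob + CUR, 71, 57.3 and 71.9 CPM in Ob + RSV, 102, 97.3 and 63.7 CPM in Ob, and 105, 92.4 and 55.5 CPM in C. The Ob + EAE libraries were only just above Ob replicate 1, and the gene was not called (log2FC 0.20 ± 0.25 SE, adjusted p = 0.862). Mfsd2a, the carrier of omega-3 lipids that also restrains transcytosis, had 21.3 and 20.8 CPM in Ob + EAE, 24.1 CPM in Ob + CUR, 19.7, 12 and 16.1 CPM in Ob + RSV, 40.9, 31.5 and 12 CPM in Ob, and 31.7, 23.2 and 10.3 CPM in C. Its Ob libraries spanned the Ob + EAE values (log2FC -0.52 ± 0.39 SE, adjusted p = 0.666). Bsg, encoding basigin, which chaperones lactate carriers, had a log2FC of -0.37, Slc7a5, a large amino acid carrier, 0.46, and the efflux pump gene Abcg2 0.24, none called.

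Among pericyte genes, Notch3, a receptor that vascular mural cells need, had 46.8 and 54.2 CPM in Ob + EAE, against 18.2, 19 and 21.8 CPM in Ob. The groups were well apart (log2FC 1.29 ± 0.23 SE, adjusted p = 0.00486). Rgs5, a regulator of G protein signaling, had 87.6 and 86.7 CPM in Ob + EAE, 97.9 CPM in Ob + CUR, 46.8, 38.7 and 46.1 CPM in Ob + RSV, 44.4, 41.4 and 47.7 CPM in Ob, and 35.6, 25.3 and 40.8 CPM in C. It passed the adjusted p alone (log2FC 0.90 ± 0.22 SE, adjusted p = 0.0259). Pdgfrb, the receptor that recruits pericytes, had 29.4 and 31.2 CPM in Ob + EAE, 36.4 CPM in Ob + CUR, 13.6, 21.7 and 16.1 CPM in Ob + RSV, 16.7, 19.3 and 21.4 CPM in Ob, and 19.8, 29.2 and 19.1 CPM in C. It was not called although the groups did not overlap (log2FC 0.60 ± 0.25 SE, adjusted p = 0.256). Vtn, encoding the matrix protein vitronectin, had 61.2 and 57.7 CPM in Ob + EAE, 65.7 CPM in Ob + CUR, 58.4, 66.5 and 48.7 CPM in Ob + RSV, 95.2, 63.9 and 51.9 CPM in Ob, and 78.1, 68.6 and 53.8 CPM in C. Here the Ob + EAE libraries fell inside the Ob range (log2FC -0.33 ± 0.25 SE, adjusted p = 0.672). No smooth muscle gene was called. Acta2, encoding smooth muscle actin, had 11.1 and 11.5 CPM in Ob + EAE, 8.64 CPM in Ob + CUR, 5.06, 3.54 and 1.18 CPM in Ob + RSV, 4.79, 5.56 and 5.11 CPM in Ob, and 4.6, 3.98 and 2.83 CPM in C. The Ob + EAE libraries were above all others (log2FC 1.06 ± 0.45 SE, adjusted p = 0.263). Myh11, the smooth muscle myosin heavy chain gene, had 11.8 and 12.1 CPM in Ob + EAE, 10.3 CPM in Ob + CUR, 4.76, 2.21 and 3.29 CPM in Ob + RSV, 5.41, 4.84 and 4.28 CPM in Ob, and 3.2, 2.56 and 4.26 CPM in C. It too was highest in the Ob + EAE libraries (log2FC 1.23 ± 0.41 SE, adjusted p = 0.114). Tagln, encoding the actin-binding protein transgelin, had 0.189 and 0.325 CPM in Ob + EAE, 0.559 CPM in Ob + CUR, 0.342, 0 and 0.529 CPM in Ob + RSV, 0.721, 0.495 and 0 CPM in Ob, and 0.256, 0 and 0.335 CPM in C. These values rest on a few reads a library and give no order.

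Promoters of 4 called genes are shown, those with at least 2 matches to the motif below among the 8 called genes with a sequence. Of the 40 genes, 26 had a promoter in the RefSeq table (build GRCm38.p6), as 300-base windows around the gene start. Cdh5, Pecam1, Tagln, Ptprb, Vwf, Esam, Myh11, Sox18, Ly6a, Fli1, Sox17, Bsg, Pdgfrb and Slc7a5 are named only. Windows were searched for the ETS core AGGAAG or CGGAAG on both strands, each overlapping match being counted, since ETS factors such as ERG and FLI1 bind such cores in endothelial genes. At least 1 match was found in 12 of 20 endothelial promoters (60%) and in 12540 of 27025 genes (46.4%). The sequences follow with the matches in capitals, for Flt1 (chr5:147725962-147726261, minus strand), Tie1 (chr4:118489800-118490099, minus strand), Eng (chr2:32646345-32646644, plus strand) and Abcb1a (chr5:8566841-8567140, plus strand).
Flt1: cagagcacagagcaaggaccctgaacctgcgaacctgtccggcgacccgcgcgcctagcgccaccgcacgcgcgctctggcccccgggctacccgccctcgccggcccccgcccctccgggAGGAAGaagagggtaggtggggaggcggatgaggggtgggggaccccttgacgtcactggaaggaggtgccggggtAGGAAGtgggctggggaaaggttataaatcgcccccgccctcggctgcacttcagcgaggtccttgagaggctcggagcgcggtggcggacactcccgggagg
Tie1: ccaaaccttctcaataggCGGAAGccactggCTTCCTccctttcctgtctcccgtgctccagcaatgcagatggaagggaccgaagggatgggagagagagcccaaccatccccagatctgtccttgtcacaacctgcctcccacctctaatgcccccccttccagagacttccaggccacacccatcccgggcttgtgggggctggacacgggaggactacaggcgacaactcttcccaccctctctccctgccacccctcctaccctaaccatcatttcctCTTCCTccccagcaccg
Eng: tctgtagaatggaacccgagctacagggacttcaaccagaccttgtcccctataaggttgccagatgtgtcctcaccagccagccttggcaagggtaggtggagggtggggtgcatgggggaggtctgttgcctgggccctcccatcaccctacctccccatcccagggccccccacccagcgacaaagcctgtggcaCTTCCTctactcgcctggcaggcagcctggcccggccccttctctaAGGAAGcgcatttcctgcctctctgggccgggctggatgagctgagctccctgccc
Abcb1a: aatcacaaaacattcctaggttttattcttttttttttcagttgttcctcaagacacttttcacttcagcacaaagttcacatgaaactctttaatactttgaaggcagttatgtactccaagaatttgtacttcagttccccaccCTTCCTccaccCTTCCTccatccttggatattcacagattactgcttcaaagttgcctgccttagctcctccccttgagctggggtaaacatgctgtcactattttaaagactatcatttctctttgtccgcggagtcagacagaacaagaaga
Flt1, Eng and Abcb1a each held 2 matches, Tie1 held 3, Slco1a4 held 1, and the windows of the called genes Kdr, Tek and Notch3, as that of Cldn5, held none. Of other endothelial genes, none called, Egfl7 held 3, Emcn and Itm2a 2 each, and Cd34, Abcg2, Slco1c1 and Tjp1 1 each. Slc2a1, Mfsd2a, Ocln, Ly6c1 and Erg held none. The CArG box (CC, 6 of A or T, GG), searched for smooth muscle genes, was not in the window of Acta2, the one such gene with a sequence, and was in 1.57% of all genes' windows. A match is a string of letters and not a shown binding site.

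Transcript length went with these differences. The 40 genes were split at their median merged exon length of 4384 bases into 20 long and 20 short ones. The median log2FC in Ob + EAE vs. Ob was 1.18 for the long and 0.24 for the short genes, and 10 of 20 long against 2 of 20 short genes were called. Over all genes tested it was 0.24 above and -0.13 up to that length, with 2.43% and 0.332% called higher. Long genes were thus higher in Ob + EAE across the transcriptome, by less than the long vessel genes. When each library's length trend was removed, 6 of the 40 genes were called, against 0.373% of all genes called higher, and 5 of these 6 were among the 12. The sixth was Cldn5, at a log2FC of 1.39 and an adjusted p of 0.0424. The median log2FC of the 40 genes was then 0.89.

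**Figure D3:**
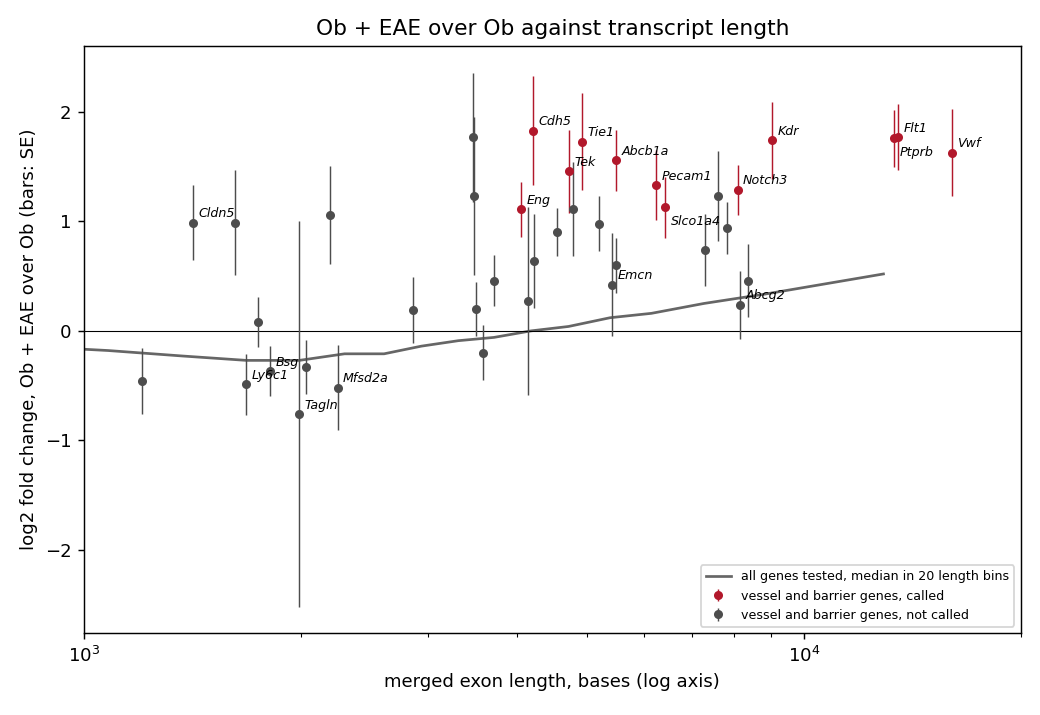
Fitted log2FC of Ob + EAE over Ob for the 40 genes (points, bars are SE) against merged exon length on a log axis, with the median of all genes tested in 20 length bins (line). The line ends at 0.52 in the longest bin, and the 12 called genes (red), the shortest being Eng, lie above it.

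The number of calls depended on single libraries. Without Ob replicate 1 it was 3 (Flt1, Notch3 and Ptprb), and calls over all genes fell from 665 (1.84%) to 18 (0.0507%). Without Ob replicate 2 it was 10, with 638 (1.79%) over all genes. Without Ob replicate 3 it was 15, with 1173 (3.29%) over all genes. Leaving out an Ob + EAE library leaves 1 in that group, so calls of those fits are not given. Ob replicate 1, Ob + RSV replicate 2 and C replicate 2 had the fewest detected genes of their groups. Without these 3 libraries together no gene of the 40 was called, against 1 of all 33968 genes tested. An unadjusted p under 0.05 was found for 20 of the 40, against 10.3% of all genes in both directions together, and the median log2FC was 0.81.

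Marker genes of other cell types were compared in the same libraries. The summed level of 5 red blood cell genes was 188 to 225 CPM in Ob + EAE, against 97.1 to 199 CPM in Ob, and that of 7 fibroblast genes 37.1 CPM in both Ob + EAE libraries, against 26.4 to 40.3 CPM in Ob. The 8 neuron genes summed to 3570 to 3630 CPM in Ob + EAE, against 2950 to 3510 CPM in Ob, higher without overlap. Of these 8 genes, 5 had a positive log2FC and 3 a negative one. Ependymal genes had 25.2 to 29.7 CPM in Ob + EAE, against 23.2 to 95.8 CPM in Ob. The 10 hypothalamic genes had 989 to 1180 CPM in Ob + EAE, against 1400 to 3000 CPM in Ob, lower without overlap. Of these 10 genes, 8 had a negative log2FC and 2 a positive one. Choroid plexus genes summed to 35.7 to 36.9 CPM in Ob + EAE, against 16.1 to 28.2 CPM in Ob, and pituitary genes to 2.23 to 3.58 CPM in Ob + EAE, against 1.87 to 2.04 CPM in Ob, so both were higher without overlap. Oligodendrocyte genes were lower without overlap, at 4650 to 4980 CPM in Ob + EAE, against 5950 to 6520 CPM in Ob. Astrocyte genes (1040 to 1050 CPM in Ob + EAE, against 641 to 1170 CPM in Ob) lay within the Ob range, and microglial genes (136 to 144 CPM in Ob + EAE, against 83.3 to 140 CPM in Ob) overlapped it. Of single genes, 1 of 5 microglial (adjusted p = 0.0356) and 1 of 10 hypothalamic genes (adjusted p = 0.00948) were called, both lower, against 1.08% of all genes. No gene of the other marker lists was called. Of the microglial genes 3 had a positive and 2 a negative log2FC, and all 4 ependymal genes had a negative one. Of the choroid plexus list Ttr and Aqp1, and of the pituitary list Gh, Prl and Cga, had 0 reads in at least 1 library. The part of these lists in the vessel gene differences was not tested.

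The comparison of Ob + EAE with C was added after the data were seen. It shares the Ob + EAE libraries with the comparison above. Of the 40 genes 5 were called, all higher, and these were the only calls, against 0.0138% of all genes called higher. They were Ptprb (log2FC 2.14 ± 0.27 SE, adjusted p = 0.000261), Flt1 (log2FC 2.00 ± 0.30 SE, adjusted p = 0.00395), Slco1a4 (log2FC 1.77 ± 0.28 SE, adjusted p = 0.00816), Rgs5 (log2FC 1.35 ± 0.22 SE, adjusted p = 0.011) and Eng (log2FC 1.52 ± 0.25 SE, adjusted p = 0.0119). The count fell to 1 with filterByExpr or without C replicate 2, to 2 without C replicate 1 and to 0 with 3 libraries left out. It was 17 with DESeq2, which called 171 of all genes (0.565%). The median log2FC was 0.91.

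The single Ob + CUR library allows no test. Of the 40 genes, 22 were at least 1 above the Ob mean on the log2 CPM scale and 0 at least 1 below, against 14.3% of all genes that high. The largest differences were those of Cdh5 (2.06) and Flt1 (2.05). The library lay above all Ob libraries for 32 genes, below them for Egfl7 and Bsg, and within their range for the other 6. It is the library with low Oxt, Avp, Hcrt, Trh and Pmch, and whether the dissected region played a part was not tested. The 2 Ob + EAE libraries and the Ob + CUR library were all above each of the other 9 libraries for 27 of the 40 genes and below them for 0, against 5.69% and 3.05% of all genes. Among long genes this held for 19 of 20, Emcn being the exception, against 15.5% of all genes of that length.

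**Figure D4:**
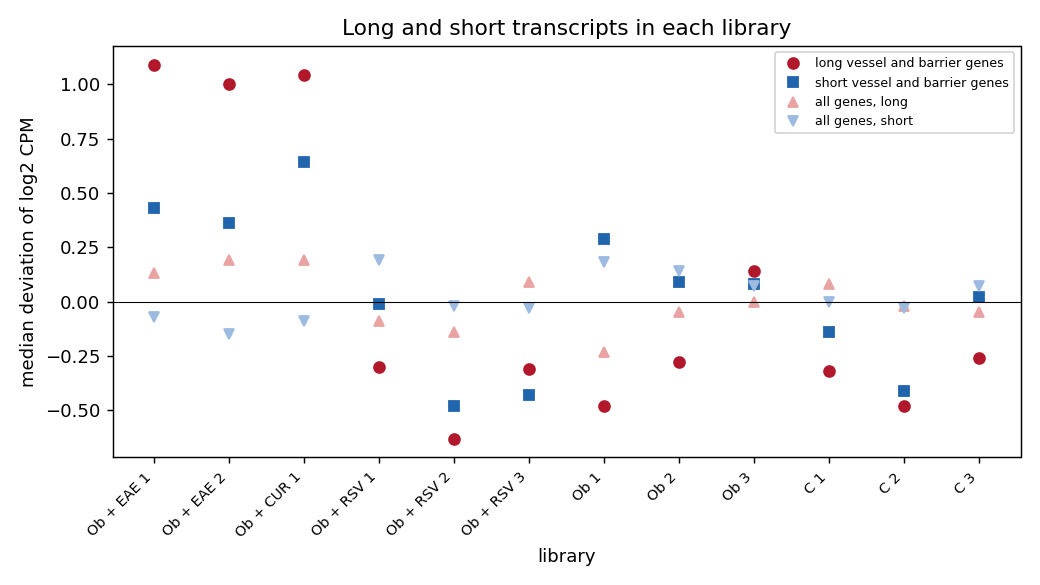
Median deviation of log2 CPM from the mean of the 12 libraries, in each library, for the long and short vessel and barrier genes and for long and short genes at large. Long vessel genes are at 1.00 to 1.09 in Ob + EAE, 1.04 in Ob + CUR and at most 0.14 in the others, and long genes at large are at 0.13 to 0.19 in those 3 libraries and at most 0.09 in the others. Short vessel genes are at 0.36 to 0.64 in those 3 libraries, where short genes at large are at -0.15 to -0.07.

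The effect of resveratrol was asked by setting Ob + RSV against Ob. None of the 40 genes was called by edgeR or by DESeq2. Of the 33534 genes tested, edgeR called 0%. It called 10 genes with the replicate number added to the fit, 11 with no filter, and 2 without Ob replicate 3 or Ob + RSV replicate 1. None of these was among the 40. An unadjusted p under 0.05 was found for 1 of the 40 genes in the higher and 3 in the lower direction, against 1.66% and 1.5% of all genes. Both directions together, these 4 became 2 without Ob replicate 2 or Ob + RSV replicate 2 and 7 without Ob + RSV replicate 1. The median log2FC was -0.34 over the 40 genes and 0.00 over all genes. A negative log2FC was found for 35 of the 40, against 16679 of all 33534 genes. Fli1, Mfsd2a and Sox18 had the smallest p-values. Fli1, an ETS factor gene, had 2.89 and 3.76 CPM in Ob + EAE, 3.78 CPM in Ob + CUR, 2.43, 9.79 and 2.82 CPM in Ob + RSV, 0.103, 2.2 and 1.79 CPM in Ob, and 1.45, 2.9 and 3.21 CPM in C. Its difference came with 1 high library, Ob + RSV replicate 2, and 1 low one, Ob replicate 1 (log2FC 1.84 ± 0.70 SE, adjusted p = 1). Mfsd2a overlapped between the groups (log2FC -0.87 ± 0.36 SE, adjusted p = 1). Sox18 had 2.85, 0.919 and 1.59 CPM in Ob + RSV, against 2.68, 3.69 and 5.49 CPM in Ob (log2FC -1.14 ± 0.55 SE, adjusted p = 1).

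Libraries of Ob + RSV and Ob did not overlap for Eng, Esam and Egfl7, lower in Ob + RSV, and for Fli1, higher. That is 3 and 1 of the 40 genes, against 3.75% and 2.94% of all genes. Eng had 10.9, 9.88 and 10.1 CPM in Ob + RSV, against 11.5, 14.6 and 17.6 CPM in Ob (log2FC -0.52 ± 0.28 SE, adjusted p = 1). Esam, encoding an endothelial adhesion molecule, had 9.55, 8.27 and 8.29 CPM in Ob + RSV, against 14.3, 9.79 and 14 CPM in Ob (log2FC -0.57 ± 0.30 SE, adjusted p = 1). The gap in Esam between the groups was small beside the range within Ob. Egfl7 had 34.2, 34.2 and 26.3 CPM in Ob + RSV, against 39.4, 35.4 and 42.8 CPM in Ob (log2FC -0.34 ± 0.24 SE, adjusted p = 1).

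**Figure D5:**
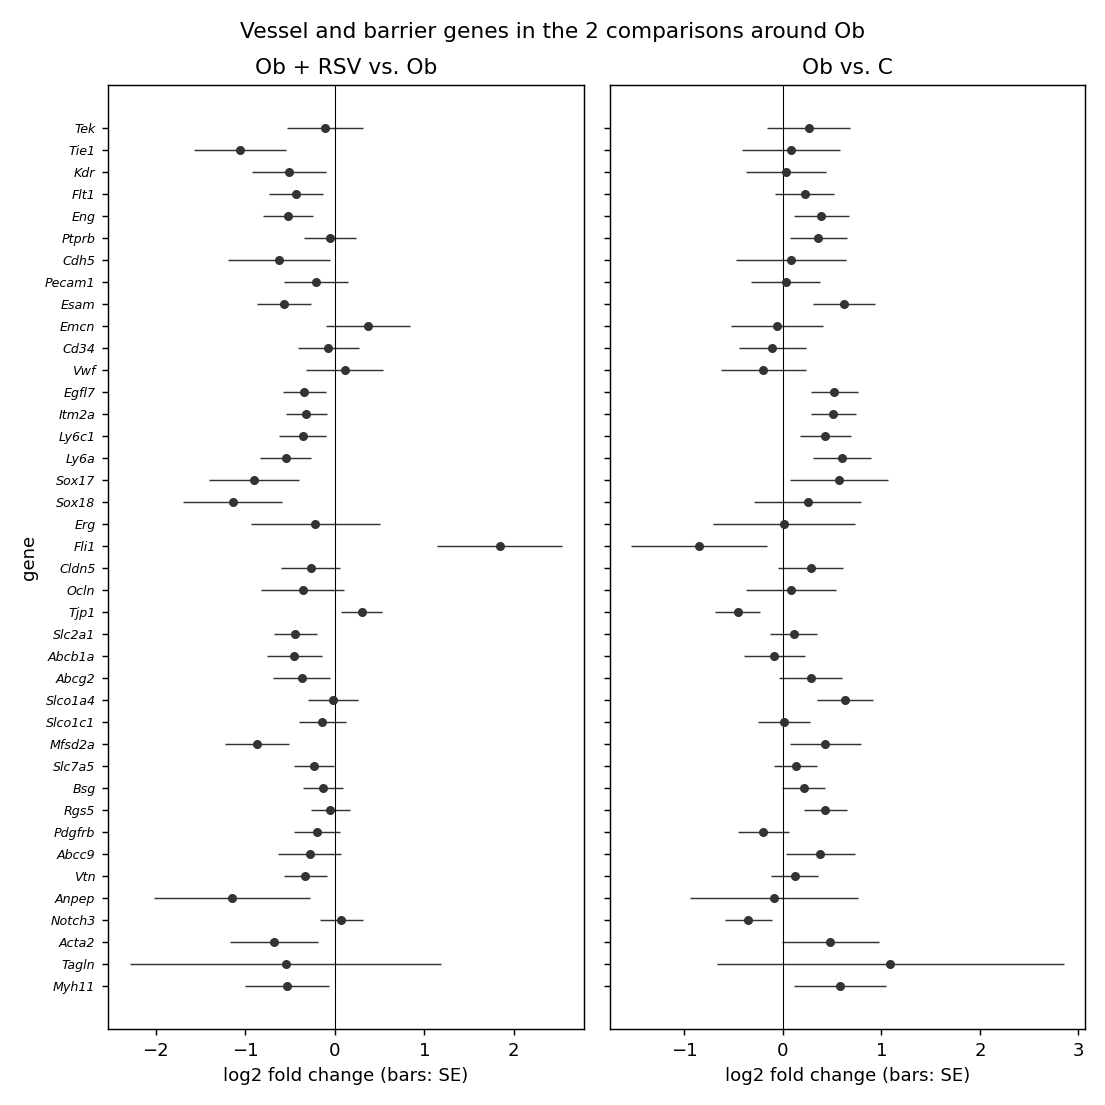
Fitted log2FC with SE (bars) of the 40 genes in Ob + RSV vs. Ob (left) and Ob vs. C (right). Both panels share the Ob libraries, and none of the genes was called in either.

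The effect of the HFD was asked by setting Ob against C, which shares the Ob libraries with the comparison above. None of the 40 genes was called by edgeR or DESeq2. Of all genes, edgeR called 0%. It called 50 genes with the replicate number added to the fit, 35 with no filter, 11 without C replicate 3 and 6 without Ob replicate 3. None of these was among the 40. An unadjusted p under 0.05 was found for 4 of the 40 genes in the higher and 0 in the lower direction, against 1.35% and 1.4% of all genes. This count depended on single libraries. It was 0 without C replicate 2, 1 higher without C replicate 1 or Ob replicate 1, 1 higher and 1 lower without Ob replicate 3, and 7 higher and 1 lower without C replicate 3. The median log2FC was 0.22 over the 40 genes and 0.00 over all genes. A positive log2FC was found for 31 of the 40, against 48.8% of all genes. The Ob libraries, shared with the comparison above, include Ob replicate 3, the highest of the 9 libraries for 21 of the 40 genes. The 3 smallest p-values were those of Itm2a, a membrane protein gene of brain endothelium (log2FC 0.51 ± 0.23 SE, adjusted p = 1), Slco1a4 (log2FC 0.63 ± 0.28 SE, adjusted p = 1) and Egfl7 (log2FC 0.52 ± 0.24 SE, adjusted p = 1). Slco1a4 had 15.3, 21 and 37.5 CPM in Ob, against 13.1, 13.9 and 21.5 CPM in C, with overlap.

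Ob and C libraries did not overlap for Ly6a, Rgs5, Acta2 and Myh11, higher in Ob, and for Notch3, lower in Ob. That is 4 and 1 of the 40 genes, against 3.42% and 4.21% of all genes. Ly6a had 18.3, 16.1 and 21 CPM in Ob, against 12.3, 9.27 and 16 CPM in C (log2FC 0.60 ± 0.29 SE, adjusted p = 1). Rgs5 had a smaller difference (log2FC 0.43 ± 0.22 SE, adjusted p = 1), as had Notch3 (log2FC -0.35 ± 0.24 SE, adjusted p = 1). The smooth muscle genes Acta2 (log2FC 0.48 ± 0.49 SE, adjusted p = 1) and Myh11 (log2FC 0.58 ± 0.47 SE, adjusted p = 1) had low counts and wide errors.

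In Ob + RSV vs. C, which shares libraries with both, none of the 40 genes was called by edgeR or DESeq2. Of all genes, edgeR called 0%. It called 35 genes with the replicate number added to the fit, 32 with no filter and 3 without Ob + RSV replicate 1. None of these was among the 40. An unadjusted p under 0.05 was found for 1 of the 40 genes in the higher and 0 in the lower direction, against 1.47% and 1.4% of all genes. Without C replicate 1, C replicate 2 or Ob + RSV replicate 3 no gene was left at that p, and without C replicate 3 or Ob + RSV replicate 1 there were 4 in both directions together. It was Slco1a4 (log2FC 0.61 ± 0.28 SE, adjusted p = 1), followed by Tie1 (log2FC -0.98 ± 0.51 SE, adjusted p = 1) and Abcb1a (log2FC -0.54 ± 0.31 SE, adjusted p = 1). The median log2FC was -0.13.

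Levels varied among mice of a group, with a median coefficient of variation over the 40 genes of 24.1% in Ob + RSV, 24.7% in Ob and 24.2% in C. The highest of the 9 libraries of Ob + RSV, Ob and C exceeded the lowest by a median of 2.25-fold over the 38 genes with reads in all of them. Ob replicate 3 was the highest of the 9 for 21 of the 40 genes, and Ob + RSV replicate 2 the lowest for 12. Per kilobase of transcript, Bsg was the most abundant of the 40 genes in C at 294 ± 25.9 CPM per kb (SD, n = 3), followed by Vtn at 32.9 ± 6.05 and Slc2a1 at 24 ± 7.29, and of these 3 Vtn and Slc2a1 overlapped in range.

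Of 100 other vascular genes, 99 were tested in each comparison. In Ob + EAE vs. Ob 4 were called, all higher, against 0.763% of all genes, at a median log2FC of 0.44. They were Podxl, a sialomucin gene of the vessel lumen (log2FC 1.18 ± 0.27 SE, adjusted p = 0.0193), Slc22a8, an organic anion transporter gene (log2FC 1.35 ± 0.32 SE, adjusted p = 0.0233), Apcdd1, a WNT inhibitor gene (log2FC 1.03 ± 0.27 SE, adjusted p = 0.0345), and Tgfbr2, a TGF-beta receptor gene (log2FC 1.14 ± 0.31 SE, adjusted p = 0.0454). By list, calls were 1 of 18 VEGF, angiopoietin and PDGF genes, 1 of 16 WNT and norrin genes, 1 of 22 further barrier genes, 1 of 23 endothelial identity genes and 0 of 20 further mural genes. In Ob + EAE vs. C none was called by edgeR and 28 had an unadjusted p under 0.05, all higher, against 2.16% of all genes, led by Apcdd1, Podxl and Ets1 with log2FC of 1.39, 1.36 and 1.71. None was called by edgeR in the other comparisons, where the smallest p-values belonged to Foxc1 (log2FC -1.27 ± 0.50 SE, adjusted p = 1), Nos3 (log2FC -1.19 ± 0.49 SE, adjusted p = 1) and Robo4 (log2FC -1.24 ± 0.58 SE, adjusted p = 1) with resveratrol, and to Pgf (log2FC 0.73 ± 0.34 SE, adjusted p = 1), Gja5 (log2FC -2.27 ± 1.26 SE, adjusted p = 1) and Nrp2 (log2FC -0.42 ± 0.24 SE, adjusted p = 1) with the HFD. For Ob + RSV set against C they were Foxc1, Thbd and Lef1, with log2FC of -1.48, -1.55 and -0.88.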

How the data were processed

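The hypothalamus libraries were poly-A selected, stranded and read as pairs. The authors aligned reads with HISAT2 and counted them per gene with featureCounts, and the deposited values are raw counts. The submitters' processing notes name GRCm39. How the counting treated strand and multimapping was not given in the sources used here, and paralogs and antisense partners may share reads. Merged exon lengths came from GENCODE vM21 on GRCm38, matched by gene ID. The only positions given are those of the promoter windows, on build GRCm38.p6. Of 78334 IDs, 51486 had a symbol.

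Genes with at least 10 reads over the libraries of a fit were tested with edgeR 4.0.16 (TMM scaling, glmQLFit and glmQLFTest) on R 4.3.3, in 1 fit of the 9 C, Ob and Ob + RSV libraries and, for Ob + EAE, in 1 fit of all 12. The SE is the size of the log2FC divided by the square root of F. CPM is per total counts. Ob + CUR differences use TMM-scaled log2 CPM with a prior count of 2. Length trends were lowess fits (span 0.3) over genes averaging at least 20 reads. The scripts were tested on simulated data.

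The members and lists were chosen with earlier results of these data known. Values in every library were given for 15 defining genes, and otherwise genes were named for the 3 smallest p-values of a comparison, a call, or non-overlap in Ob vs. C or Ob + RSV vs. Ob. Several further genes were named after their values were seen. Alternatives were RLE scaling, filterByExpr, no filter, DESeq2 1.42.0, a fit of 2 groups, a replicate block, length trend removal and leaving out libraries. Plots were made with matplotlib.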

Additional observations from a re-analysis of the deposited data

How the results depend on the processing

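In Ob + EAE vs. Ob the 12 calls became 5 with filterByExpr, 6 with the length trend removed and 0 with 3 libraries left out. Of all genes, 1.84% were called in either direction in the main fit, and 0.265%, 0.52% and 0.00294% in these. Leaving out single Ob libraries gave 3 to 15 calls, against 0.0507% to 3.29% of all genes. RLE scaling gave 12, no filter 14, a fit of 2 groups 13 and DESeq2 17, against 1.76%, 2.01%, 2.16% and 4.2% of all genes. The median log2FC of long minus that of short genes, 0.94, became 0.54 with the length trend removed and 0.69 with 3 libraries left out, and ranged from 0.69 to 1.09 when single libraries were left out. In Ob + EAE vs. C the 5 calls became 1 with filterByExpr, 15 with no filter, 16 with the replicate block, 0 with 3 libraries left out and 17 with DESeq2. Of all genes, 0.0138% were called in the main fit, and 0.00344%, 0.259%, 0.771%, 0% and 0.565% in these. Leaving out single C libraries gave 1 to 6 calls, against 0.00281% to 0.0253% of all genes. In Ob vs. C long minus short was -0.21 for the 40 genes. Over all genes tested there, the median log2FC was -0.11 for long and 0.08 for short genes. The value of the 40 genes became 0.05 with 3 libraries left out, and ranged from -0.49 to -0.08 when single libraries were left out. The causes were not tested. Of the values of single named genes under the alternatives, 901 kept their direction and their side of the threshold, 104 lost their call and 29 gained one, losses and gains all being in Ob + EAE comparisons, and 6 changed sign. Cldn5, Erg, Myh11, Slco1c1, Tjp1, Sox17 and Acta2 gained a call in Ob + EAE vs. Ob under at least 1 alternative. None of those that changed sign was called: with the length trend removed, log2FC was -0.05 for Abcg2, 0.03 for Bsg and 0.06 for Vtn, and when single libraries were left out it ranged from -0.02 to 0.21 for Itm2a, from -0.52 to 0.02 for Vtn and from -0.05 to 1.21 for Anpep. The counts of 0 called members in Ob vs. C, Ob + RSV vs. Ob and Ob + RSV vs. C stayed at 0 in every alternative run. Correlations of same-numbered libraries ran from -0.04 to 0.43, and 8 of 9 libraries correlated best with their own number. The labels do not say whether the numbers mark pairs, and the main fits did not take them as pairs. With the replicate block, Ob + EAE vs. Ob had 16 calls among the 40 genes and 1417 over all genes (3.92%). The main fit had 12 and 665 (1.84%). With the block, calls over all genes became 50 in Ob vs. C, while Ob + RSV had 10 when set against Ob and 35 when set against C. Each of these 3 counts was 0 in the main fit, and with no filter they were 35, 11 and 32. Low counts of Tagln, Anpep and Fli1 limit what could be detected for these genes.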
